A study of Mus musculus with 8 samples.

Results

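The collagen genes of the mouse brain were analysed in RNA-seq counts from 8 libraries. The members were every protein-coding gene whose symbol consists of Col, a number, the letter a and a number. This gave 44 of the 54532 genes listed for the PTS + RS and RS libraries, and the same 44 of the 28229 genes listed for the HDAC3 inhibitor and NaCl libraries. They were divided into 11 fibrillar collagens, 8 basement membrane collagens (the 6 chains of type IV, Col15a1 and Col18a1) and 25 other collagens.

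All mice were C57BL/6, and brain tissue was taken on Day 21. PTS + RS mice had a photothrombotic stroke and restraint stress, and RS mice had restraint stress without stroke, with 2 libraries labelled cortex in each group. In the second experiment all 4 libraries came from mice with stroke and restraint stress, 2 given the HDAC3 inhibitor RGFP109 subcutaneously at 60 mg/kg per day and 2 labelled NaCl. Replicate 1 of each was labelled cortex and replicate 2 amygdala. Whether a library held a single mouse or a pool was not given in the sources used here, so every p-value measures the spread between these libraries, which may be technical.

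Collagens are triple-helical proteins of the extracellular matrix, each built from chains wound around one another. Fibrillar collagens form the banded fibrils of connective tissue, type IV collagen forms the network of basement membranes, and the remaining types coat fibrils, span membranes or build other networks. In the healthy brain little fibrillar collagen lies between the neurons, and most collagen surrounds the vessels and fills the meninges. After an injury, fibroblasts and other cells around vessels lay down collagen I and III in the scar.

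The upstream sequences of 5 collagen genes on which the comparisons turned are given first, from RefSeq on GRCm38.p6. Col16a1 had the smallest adjusted p in PTS + RS against RS, Col8a1 and Col8a2 had the lowest fold changes there, Col3a1 had the highest fold change between the labelled tissues, and Col24a1 the lowest with the inhibitor. Each is the stretch just before the annotated start site, 5′ to 3′ on the strand of the gene, up to 150 bases and without bases that GENCODE counts as an exon. Capitals mark promoter motifs searched on both strands. The TATA box was searched as TATAAA. The letters CCAAT stood for the second motif, the CCAAT box. For the GC box the letters were GGGCGG.
Col16a1, chr4:130047775-130047839, + strand: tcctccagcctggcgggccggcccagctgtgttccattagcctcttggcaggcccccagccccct
Col8a1, chr16:57754738-57754887, - strand: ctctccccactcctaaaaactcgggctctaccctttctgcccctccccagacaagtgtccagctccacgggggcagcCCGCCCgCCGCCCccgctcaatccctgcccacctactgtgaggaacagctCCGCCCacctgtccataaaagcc
Col8a2, chr4:126286644-126286792, + strand: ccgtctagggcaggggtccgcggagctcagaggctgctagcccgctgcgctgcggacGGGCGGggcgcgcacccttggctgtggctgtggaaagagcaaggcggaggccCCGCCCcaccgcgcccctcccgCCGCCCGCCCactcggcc
Col3a1, chr1:45311388-45311537, + strand: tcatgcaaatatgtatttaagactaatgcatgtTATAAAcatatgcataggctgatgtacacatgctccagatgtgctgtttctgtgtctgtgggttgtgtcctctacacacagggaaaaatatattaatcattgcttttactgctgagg
Col24a1, chr3:145292322-145292471, + strand: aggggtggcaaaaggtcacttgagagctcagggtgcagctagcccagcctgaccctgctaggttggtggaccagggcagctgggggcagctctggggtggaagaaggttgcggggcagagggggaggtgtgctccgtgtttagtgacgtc

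Both type VIII genes held GC boxes, 3 in Col8a1 and 4 in Col8a2, of which the last 2 share bases. Col3a1 held a TATA box that starts 117 bases before its start site, and the printed stretches of Col16a1 and Col24a1 held none of these letters. Col16a1 had a CCAAT box 113 bases before its start site, among the exon bases that are not printed. The set of RefSeq promoters used here held 38 promoters for 35 of the 44 collagens. In the 150 bases before the start, 19 of these 38 held a GC box (50%), against 28.6% of all 32851 promoters. A CCAAT box was in 8 (21.1%, against 24.5% of all) and a TATA box in 4 (10.5%, against 7.57% of all).

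The counts on genes summed to between 15902013 and 21712033 per library, and collagens took between 0.0697% and 0.110% of them, 11880 to 20288 counts. The library labelled NaCl replicate 1 went against its label of cortex. Of 9 markers of the olfactory bulb it held a summed 1294 CPM (counts scaled by the TMM-adjusted library total), against 12.7 to 18.0 CPM in the other 7 libraries. Both libraries labelled amygdala were high in 12 markers of amygdala and striatum, with 1014 and 1146 CPM, against 173 to 220 CPM in the cortex-labelled libraries other than NaCl replicate 1, which had 739 CPM. The 10 markers of choroid plexus epithelium summed to between 1542 and 3894 CPM in 4 libraries and to between 17.0 and 51.8 CPM in PTS + RS replicate 2, both amygdala-labelled libraries and NaCl replicate 1. The scaling was set separately within each experiment of 4 libraries, which touches every CPM level set across both. For genes whose values rest on these libraries, fits without them are given.

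At the level of single genes, Col6a1, a chain of the beaded-filament collagen VI, Col4a2 and Col4a1 had the highest mean FPKM (fragments scaled by gene length and library total) over the 8 libraries, 20.7, 16.8 and 12.2. The mean of Col6a1 was raised by NaCl replicate 1, at 57.7 FPKM. In the PTS + RS and RS libraries Col4a2 was above Col6a1, at 17.0 to 19.6 FPKM against 7.63 to 15.0 FPKM. Of the 44 collagens, 28 had a mean of at least 1 FPKM, comprising 10 of 11 fibrillar, 5 of 8 basement membrane and 13 of 25 other collagens. The leading fibrillar genes were Col11a2 (6.24 FPKM), a chain of the cartilage collagen XI, Col1a1 (4.80 FPKM), a chain of collagen I, and Col5a1 (4.32 FPKM), whose chain starts collagen I fibrils. Below the type IV pair, Col18a1, the source of endostatin, was the next basement membrane collagen at 1.81 FPKM. Among the others, Col9a3 (7.41 FPKM), a chain of the fibril-coating collagen IX, and Col25a1 (4.77 FPKM), a transmembrane collagen of neurons, followed Col6a1. Col10a1, the collagen of growth plate cartilage, had 0 counts in 3 libraries and at most 19 in the others.

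The vascular pair was steady across libraries, whereas several of the other genes were not. Col4a2 ranged only from 11.3 to 19.6 FPKM, and Col4a1 from 10.1 to 14.7 FPKM. Col6a1 was at 57.7 FPKM in NaCl replicate 1 and between 7.63 and 27.3 FPKM in the other libraries. Summed FPKM ranged from 19.5 to 43.8 for fibrillar, 27.0 to 39.0 for basement membrane and 39.0 to 103 for the other collagens. The highest fibrillar sum was that of NaCl replicate 2, and the highest sum of the others was that of NaCl replicate 1.

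**Figure D1:**
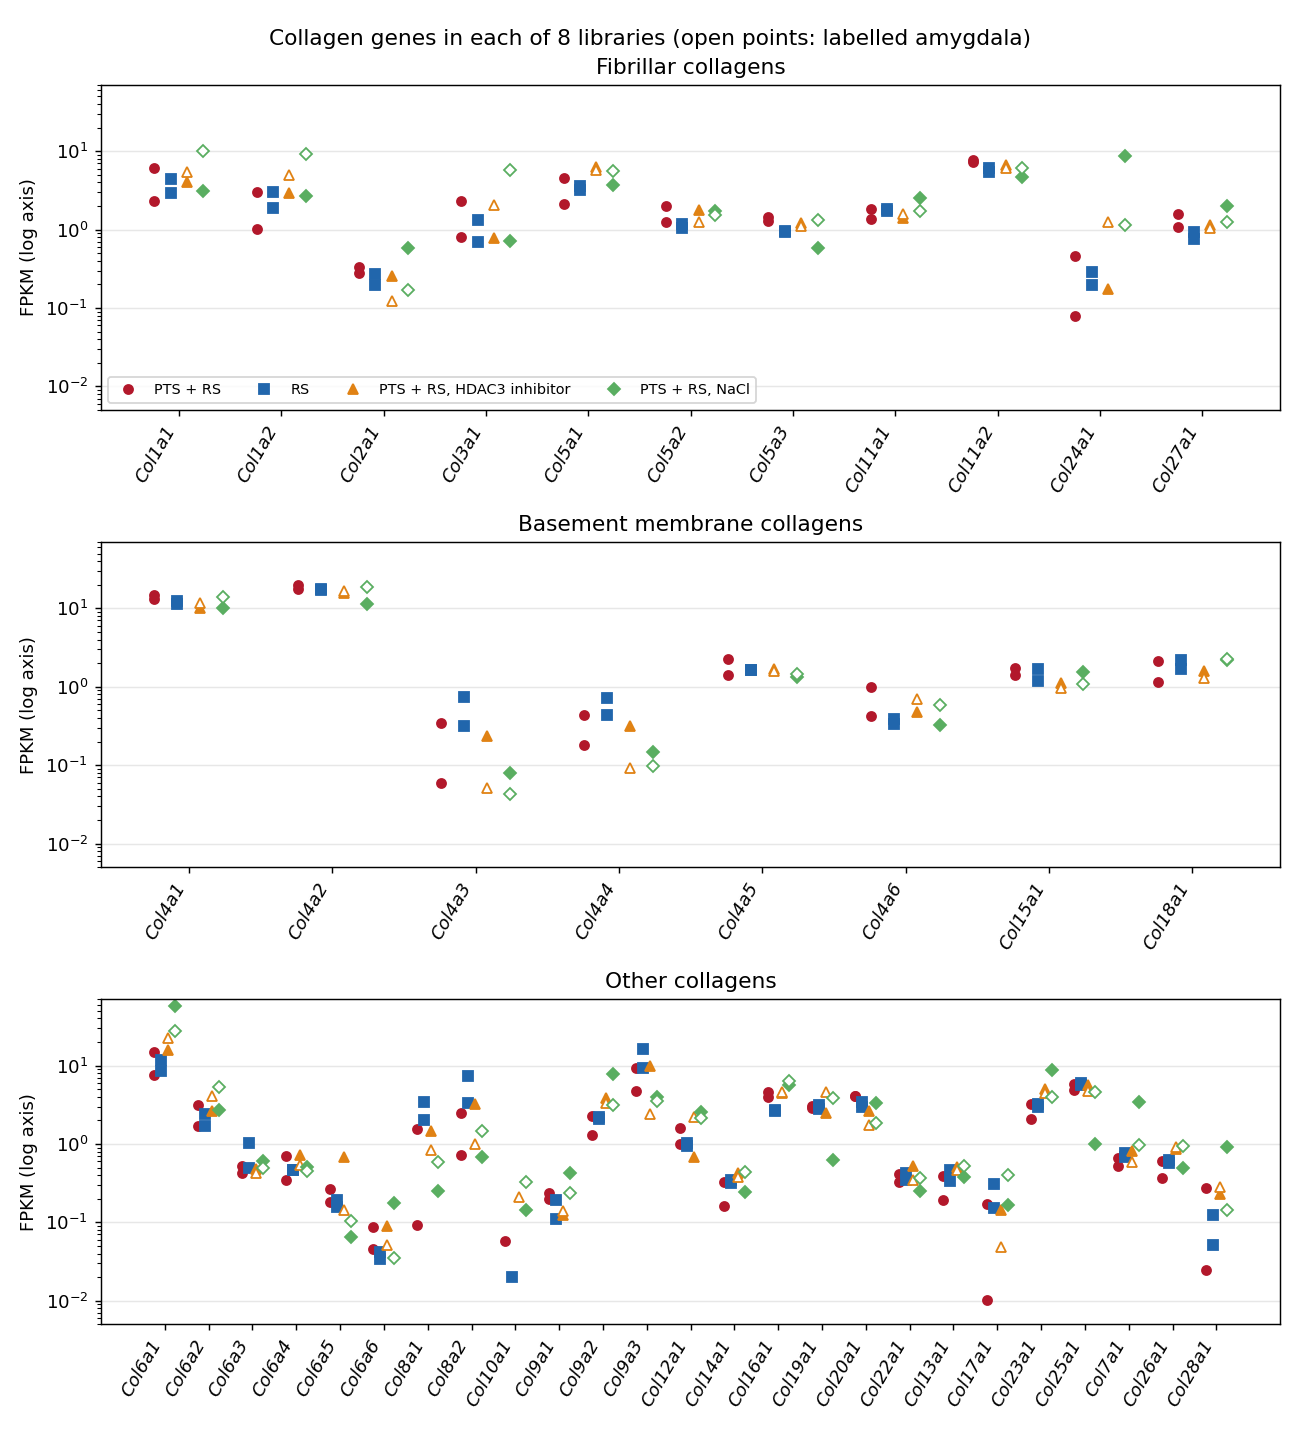
FPKM of the 44 collagen genes in each of the 8 libraries on a log axis, in a panel for each class, with colour and shape for the group and open points for libraries labelled amygdala. Values of 0 are not drawn. Col4a1 and Col4a2 lie between 10.1 and 19.6 FPKM in every library, whereas Col24a1 spreads over more than a factor of 10.

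The first comparison asked how the damaged cortex of PTS + RS mice differs from the cortex of RS mice. No collagen passed the threshold by edgeR, which asked for a log2 fold change of 1 or more in either direction together with an adjusted p (Benjamini-Hochberg) below 0.05. Of all 17581 genes tested, 2.12% were past it on the higher side and 0.091% on the lower side. Low counts removed Col6a6 and Col10a1, which left 42 collagens tested, 22 with a log2 fold change above 0 and 20 below. The count was also 0 in both directions by DESeq2 and by limma-voom. At an unadjusted p under 0.05, 7 collagens were higher and 2 lower, where the shares of all genes were 10.3% and 7.55%. The libraries did not overlap in 11 collagens on the higher side and 3 on the lower side, against 25.7% and 24.5% of all genes.

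Col16a1, a fibril-associated collagen made by fibroblasts and smooth muscle, was the only collagen with an adjusted p under 0.05, which 2.96% of all genes reached on the higher side. It had 31.4 and 26.7 CPM in the PTS + RS libraries and 17.7 and 18.6 CPM in the RS libraries. Both PTS + RS libraries were above both RS libraries. The log2 fold change of Col16a1 (chr4:130047840-130099283) was 0.68 (95% interval 0.38 to 0.98, adjusted p = 0.0376, edgeR). Its adjusted p was 0.0172 without PTS + RS replicate 1 and 0.00199 without PTS + RS replicate 2, but 0.177 without RS replicate 1 and 0.123 without RS replicate 2. By limma on log2(FPKM + 1) and log2(FPKM + 0.1) it was 0.109 and 0.102, and no collagen was under 0.05, whereas 11 were without the filter on low counts.

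Fibrillar collagens had a median log2 fold change of 0.39, with 8 of 11 above 0 and none called by edgeR, DESeq2 or limma-voom. The median of all genes tested was -0.0015. Without PTS + RS replicate 1 the fibrillar median was 0.032. At an unadjusted p under 0.05, 3 fibrillar genes were higher and none was lower, against 10.3% and 7.55% of all genes. These were Col11a2, Col5a3 and Col27a1, of which the last 2 were singled out after their values were seen.

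Col11a2 had 53.4 and 49.9 CPM in PTS + RS and 37.0 and 41.8 CPM in RS. The groups did not overlap, and the log2 fold change was 0.39 (95% interval 0.15 to 0.63, adjusted p = 0.0967, edgeR). Col5a3, a minor chain of collagen V, had a log2 fold change of 0.53, and Col27a1, a fibrillar collagen of cartilage, one of 0.64. Col5a2, the collagen V chain whose gene lies next to Col3a1, had 19.3 and 11.97 CPM against 11.3 and 10.2 CPM, with a log2 fold change of 0.54 (unadjusted p = 0.0544, edgeR).

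The chains of the scar collagens I and III differed more within the PTS + RS group than between the groups. Col1a1 had 40.7 and 15.2 CPM in PTS + RS and 29.4 and 19.4 CPM in RS. Col3a1, the single chain of collagen III, had 23.1 and 7.90 CPM against 13.2 and 6.88 CPM. Both RS libraries lay inside the range of the PTS + RS libraries for Col1a1. The log2 fold changes were 0.19 for Col1a1 (95% interval -0.78 to 1.17) and 0.62 for Col3a1 (95% interval -0.55 to 1.78), neither past the threshold. Col1a2, the other chain of collagen I, was named after its values were seen and went the other way. It had 37.8 and 12.8 CPM in PTS + RS and 37.4 and 23.7 CPM in RS. Its log2 fold change was -0.28 (unadjusted p = 0.556, edgeR), not past the threshold.

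Leaving out 1 PTS + RS library turned the direction of each of these chains. Col1a2 was at -1.26 without PTS + RS replicate 1 and at 0.30 without replicate 2. Col1a1 was at -0.69 without PTS + RS replicate 1 and at 0.73 without replicate 2, and Col3a1 at -0.36 and 1.18, with Col3a1 past the threshold in the latter fit. The sum of fibroblast markers moved with these genes, though not every marker did. The 14 markers of meningeal and perivascular fibroblasts summed to 377 CPM in PTS + RS replicate 1 and 239 CPM in replicate 2, and to 336 and 278 CPM in RS. Among them Ogn, a matrix proteoglycan, had 23.8 and 5.86 CPM in PTS + RS and 16.7 and 8.83 CPM in RS. Aldh1a1 did not follow, with 64.3 and 79.3 CPM in PTS + RS and 49.3 and 54.9 CPM in RS. Of the 13 markers tested, 4 had a log2 fold change above 0 and 9 below, with a median of -0.11. The part of fibroblast content in these values was not tested, and in bulk tissue fewer cells of a type and less RNA per cell cannot be told apart.

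**Figure D2:**
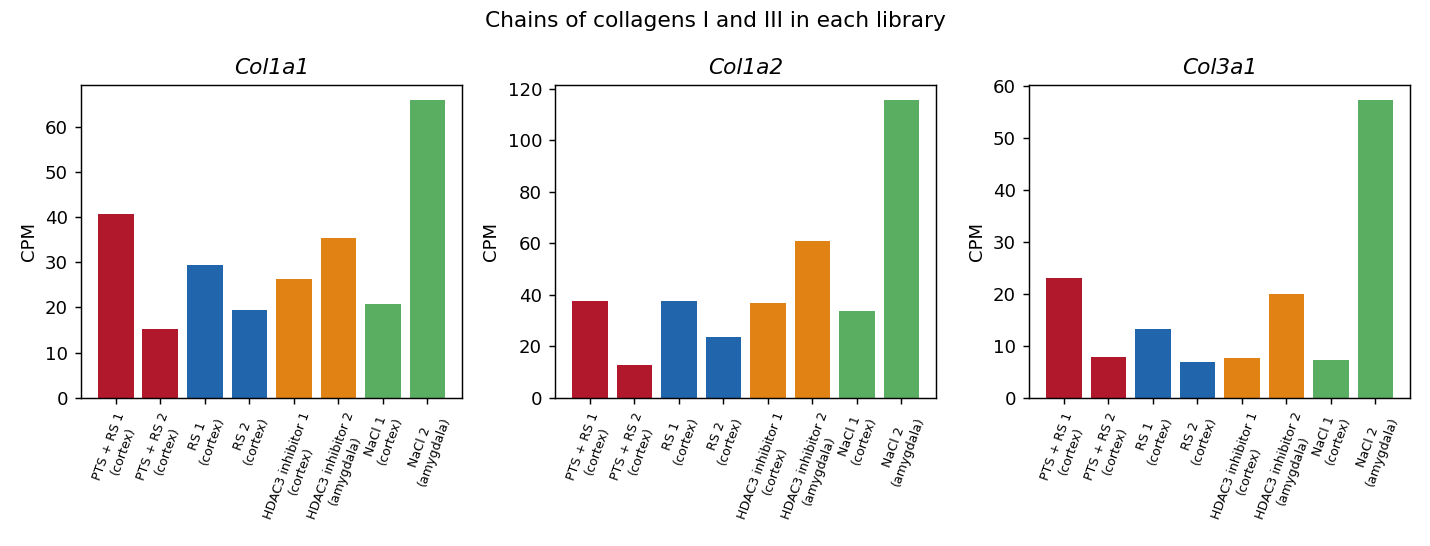
Bars give the CPM of Col1a1, Col1a2 and Col3a1 in each library, with the labelled tissue in brackets and colour for the group. All 3 genes were highest in the library labelled NaCl replicate 2, at 66.0, 116 and 57.4 CPM. Col1a1 and Col1a2 were lowest in PTS + RS replicate 2, at 15.2 and 12.8 CPM.

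Basement membrane collagens had a median log2 fold change of 0.14, with 5 of 8 above 0, and one of -0.10 without PTS + RS replicate 1. Col4a1 had 100 and 111 CPM in PTS + RS and 85.1 and 92.2 CPM in RS, and Col4a2 had 118 and 130 CPM against 113 and 116 CPM. Neither gene overlapped between the groups, although the separation was small. The log2 fold change was 0.25 for Col4a1 (95% interval 0.045 to 0.45, adjusted p = 0.196, edgeR) and 0.11 for Col4a2 (95% interval -0.074 to 0.30). Col18a1 had a log2 fold change of -0.24, and its direction turned to 0.13 without PTS + RS replicate 2.

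Col4a6, a type IV chain of smooth muscle and skin basement membranes, had the highest fold change of the collagens in this comparison. It had 7.997 and 3.41 CPM in PTS + RS and 3.09 and 2.65 CPM in RS. The groups did not overlap, but the higher value came from replicate 1 alone. The log2 fold change was 0.99 (95% interval 0.031 to 1.94, adjusted p = 0.264, edgeR). It was 1.47 and past the threshold without PTS + RS replicate 2, and 0.24 without replicate 1.

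**Figure D3:**
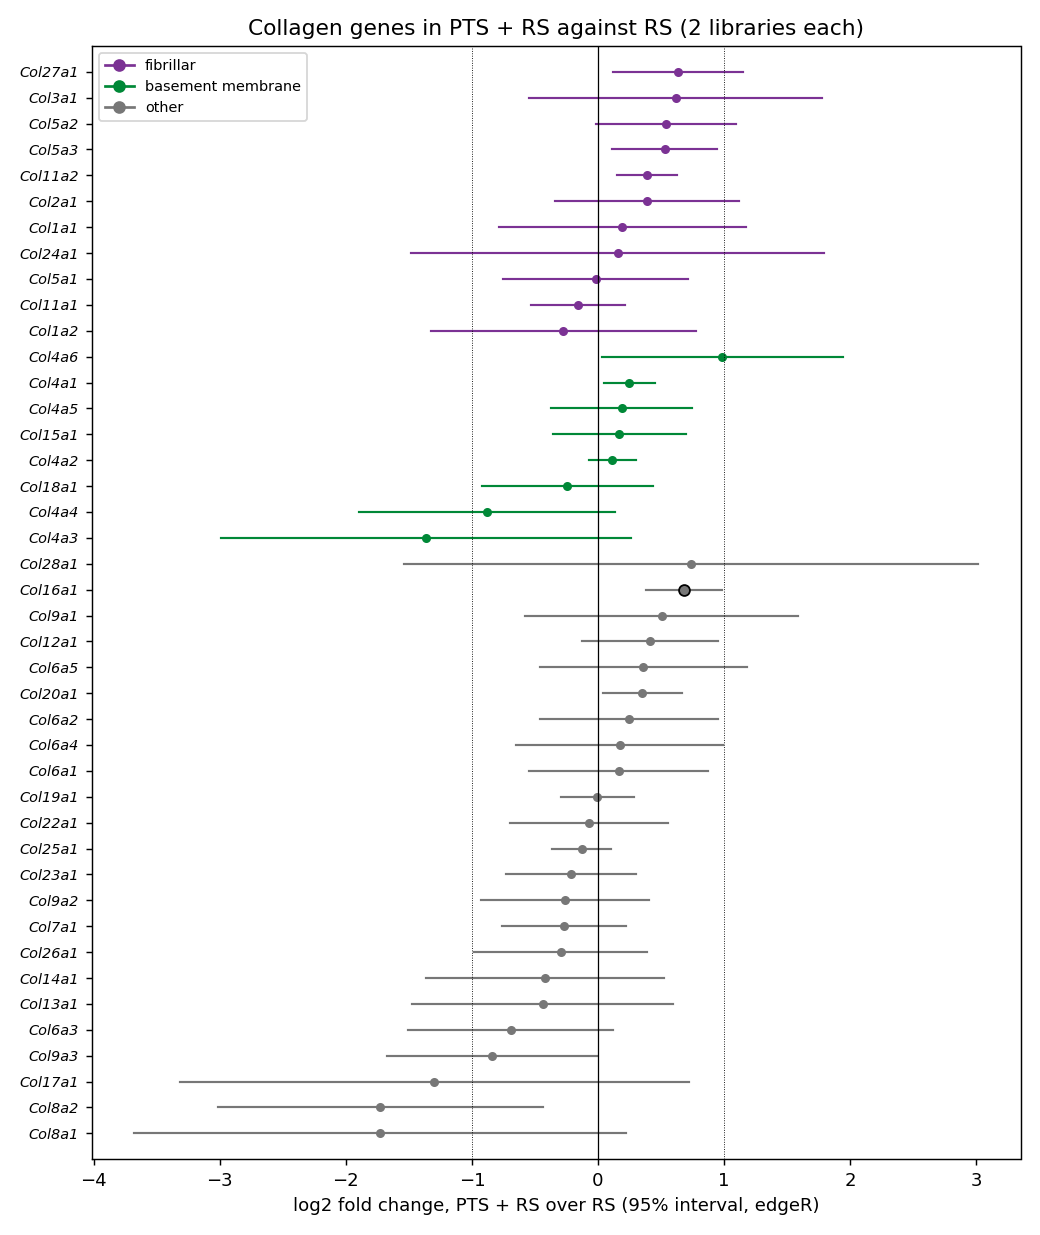
Log2 fold change of 42 collagen genes in PTS + RS over RS with 95% intervals from edgeR, coloured by class. The black-rimmed point is Col16a1 at 0.68, the only gene with an adjusted p under 0.05, and dotted lines mark a log2 fold change of 1 in either direction.

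The lowest fold changes were those of the type VIII pair and of Col4a3. Col8a1 and Col8a2 encode the short chains of collagen VIII, the hexagonal network below endothelia. Col8a1 had 12.1 and 0.718 CPM in PTS + RS and 15.9 and 26.9 CPM in RS, and Col8a2 had 11.1 and 3.23 CPM against 15.1 and 32.7 CPM. Both PTS + RS libraries were below both RS libraries for each gene, and PTS + RS replicate 2 was the lowest by far. The log2 fold change was -1.73 for both Col8a1 (95% interval -3.68 to 0.22, adjusted p = 0.336, edgeR) and Col8a2 (95% interval -3.02 to -0.44, adjusted p = 0.161, edgeR).

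A further 3 genes were highest in RS replicate 2 as well, but their groups overlapped, with PTS + RS replicate 1 slightly above RS replicate 1. Col4a3 and Col4a4, type IV chains of specialised basement membranes such as that of the kidney glomerulus, had log2 fold changes of -1.36 and -0.88. Col9a3 had 36.7 and 18.3 CPM in PTS + RS and 35.5 and 63.2 CPM in RS, with a log2 fold change of -0.84 (unadjusted p = 0.0490, edgeR). In each of these 5 genes RS replicate 2 was the highest of the 8 libraries.

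The choroid plexus markers moved with these 5 genes. All 10 of the markers had a log2 fold change below 0 between -2.48 and -1.30, none past the threshold by edgeR. They summed to 1660 and 51.8 CPM in PTS + RS and to 1871 and 3894 CPM in RS. Ttr, the transthyretin gene that defines this epithelium, had 1455 and 14.5 CPM in PTS + RS and 1610 and 3359 CPM in RS. The part of choroid plexus in the collagen values was not tested. Col8a1 and Col8a2 were at -0.82 and -1.09 when PTS + RS replicate 2 was left out and at -4.88 and -2.88 when PTS + RS replicate 1 was, the latter fit with 7 collagens past the threshold on the lower side (Col9a3, Col1a2, Col8a2, Col8a1, Col4a4, Col4a3 and Col17a1). Without RS replicate 1, Col9a3 and Col8a2 were past it.

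**Figure D4:**
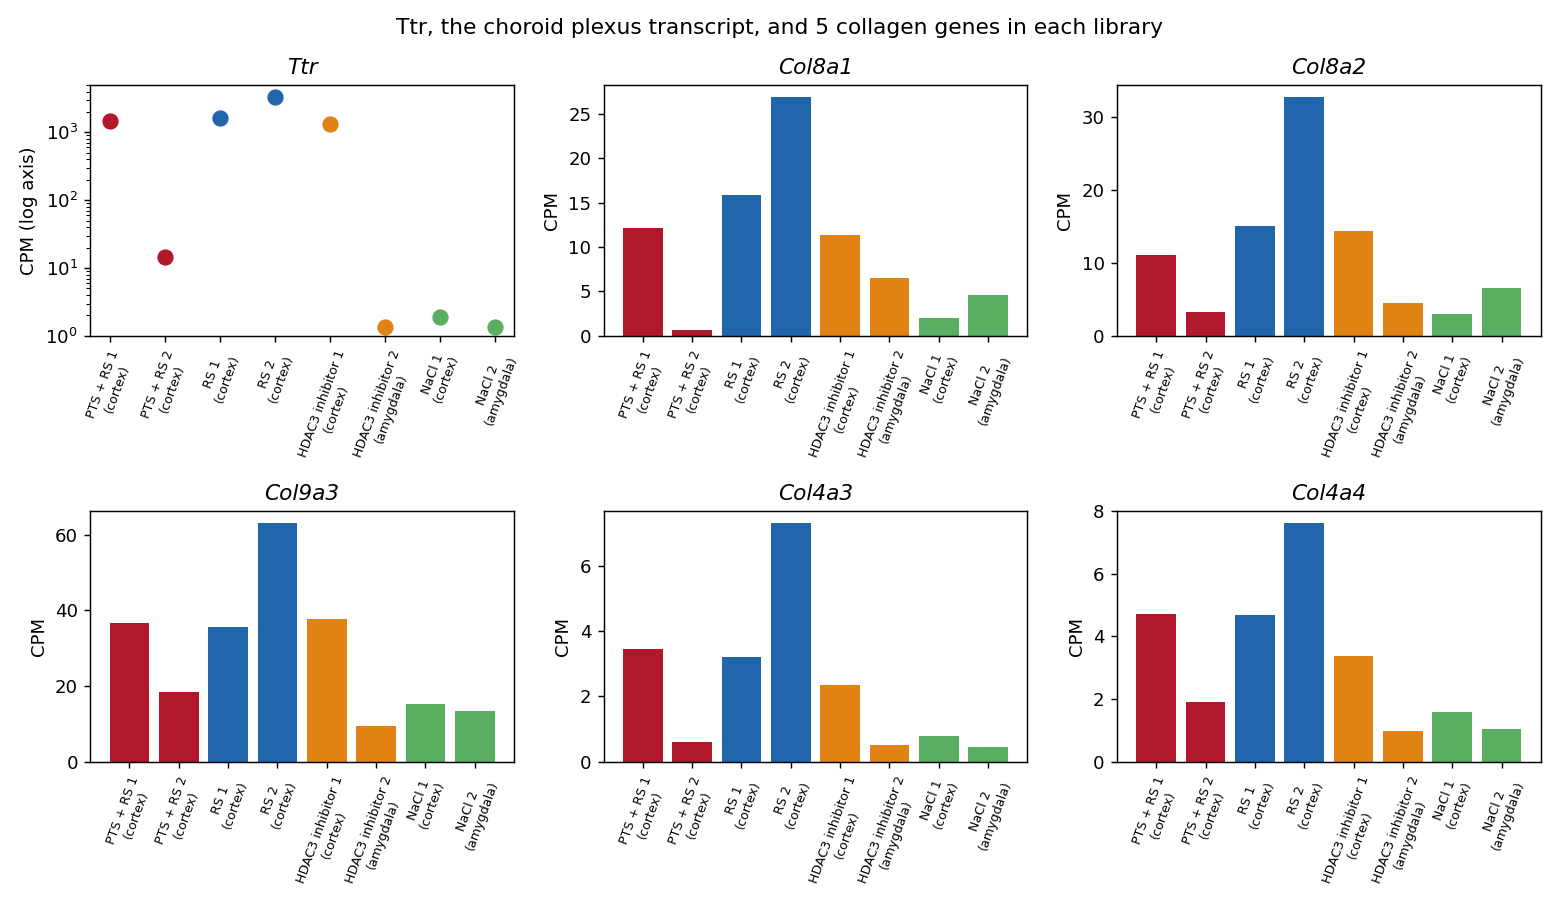
CPM of Ttr (points, log axis) and of 5 collagen genes (bars) in each library, with the labelled tissue in brackets and colour for the group. RS replicate 2 is the highest library in every panel, with 3359 CPM of Ttr, and PTS + RS replicate 2, both amygdala-labelled libraries and NaCl replicate 1 are low in Ttr.

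The other collagens with high levels showed no such shift. Col6a1 had 66.4 and 33.6 CPM in PTS + RS and 52.1 and 37.0 CPM in RS, a log2 fold change of 0.16. Col25a1 had 63.8 and 74.9 CPM against 73.4 and 78.4 CPM, a log2 fold change of -0.13 (95% interval -0.36 to 0.11). Col28a1, a collagen of Schwann cell basement membranes, had a log2 fold change of 0.74 on 23 and 2 counts against 11 and 4 counts, with a 95% interval of -1.54 to 3.02. The median over the 23 other collagens tested was -0.13, with 9 above 0 and 14 below. It was -0.44 without PTS + RS replicate 1 and 0.049 without PTS + RS replicate 2.

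Genes that make, bind and organise collagen were counted in 5 lists. Of the 9 collagen receptors tested, 1 rose past the threshold by edgeR, which 2.12% of all genes did, and none fell. Before adjustment, 3 receptors were higher and 1 lower at a p under 0.05, against 10.3% and 7.55% of all genes. The receptor past the threshold was Lair1, the inhibitory collagen receptor of leukocytes. It had 28.3 and 22.9 CPM in PTS + RS and 6.40 and 6.88 CPM in RS (log2 fold change 1.95, adjusted p = 0.00153, edgeR). The 12 tested markers of microglia, a leukocyte of the brain, were all past the threshold on the higher side as well. None of the 18 genes of collagen folding and modification, the 12 of procollagen cleavage and cross-linking, the 15 basement membrane partners and the 15 genes of fibril-associated matrix passed by edgeR. At an unadjusted p under 0.05, 6, 1, 0 and 4 of them were higher and 0, 1, 0 and 1 were lower, where 10.3% of all genes were higher and 7.55% lower. The medians of the 5 lists were 0.070 for folding, 0.12 for cleavage, -0.086 for basement membrane partners, 0.035 for matrix and 0.18 for receptors.

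With an adjusted p under 0.05 but a log2 fold change under 1, 2 more genes of these lists were higher, and both were named after their values were seen. Plod1, a lysyl hydroxylase that modifies procollagen, had 46.8 and 46.1 CPM in PTS + RS and 29.6 and 28.7 CPM in RS, a log2 fold change of 0.67. Sparc, a matrix protein that binds collagen, had 488 and 424 CPM against 255 and 235 CPM, a log2 fold change of 0.89. In both, the gap between the groups was wider than the spread within them.

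The second comparison asked what RGFP109, an inhibitor of class I histone deacetylases, changed in mice with stroke and restraint stress. All 44 collagens were tested among 17565 genes, and none passed the threshold by edgeR, DESeq2 or limma-voom. The share of all genes past it was 0% in both directions. At an unadjusted p under 0.05 in edgeR, 2 collagens were higher (Col6a5 and Col8a1) and 2 lower (Col6a1 and Col18a1), where 0.501% of all genes were higher and 0.672% lower. With the replicate number, which is also the labelled tissue, as a block, none of these collagens kept an unadjusted p under 0.05 in edgeR, and Col7a1 alone reached it, on the lower side. Every collagen had an adjusted p of 0.9997. The median log2 fold change was -0.50 for fibrillar, 0.17 for basement membrane and -0.30 for the other collagens, against -0.016 for all genes tested. Without NaCl replicate 1, the library with olfactory bulb markers, the same medians were -0.20, -0.044 and -0.080.

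Several of the lowest fold changes shrank without that library. Col24a1, a fibrillar collagen of developing bone and some neurons, had 1.33 and 9.49 CPM with the inhibitor and 67.1 and 8.86 CPM with NaCl. The NaCl replicate 1 value was 7.07 times the next highest in this experiment. The log2 fold change of Col24a1 (chr3:145292472-145552011) was -2.79 (95% interval -6.11 to 0.53, edgeR) and -0.70 without NaCl replicate 1. Col7a1, the anchoring fibril collagen of skin, had 8.44 and 5.98 CPM against 35.6 and 10.004 CPM, with a log2 fold change of -1.66, and -0.48 without NaCl replicate 1. Col6a1 had 68.4 and 97.7 CPM against 256 and 120 CPM, with -1.18, and -0.54 without NaCl replicate 1. Col17a1, a transmembrane collagen of hemidesmosomes, had 0.825 and 0.280 CPM against 0.967 and 2.34 CPM, and a log2 fold change of -1.60, which was -2.11 without NaCl replicate 1 and -0.82 without NaCl replicate 2.

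NaCl replicate 1 stood apart in many collagens. It was the highest of the 4 libraries in 16 collagens and the lowest in 18. In 16 of the 44 (36.4%) it was at least 1 log2 unit from the mean of the other 3 libraries, 9 above and 7 below, which held for 14.3% of all genes tested. It was the highest library for Col24a1, Col7a1 and Col6a1, and its low genes included Col25a1, with 13.1 CPM against 59.0 to 72.9 CPM, and Col19a1, a collagen of interneurons and muscle, with 4.38 CPM against 17.3 to 32.1 CPM. Without NaCl replicate 2, which leaves NaCl replicate 1 as the only control library, Col25a1 was past the threshold on the higher side. The part of olfactory bulb tissue in these values was not tested.

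The highest fold changes with the inhibitor were those of Col6a5, Col8a1 and Col4a3, each highest in the cortex-labelled inhibitor library. Col6a5, a further chain of collagen VI, had 6.34 and 1.36 CPM with the inhibitor and 0.626 and 0.979 CPM with NaCl, with a log2 fold change of 2.24 (95% interval 0.0078 to 4.48, edgeR), and 0.75 without HDAC3 inhibitor replicate 1. Col8a1 had 11.4 and 6.54 CPM against 1.99 and 4.62 CPM, with a log2 fold change of 1.43, and 0.94 without NaCl replicate 1 and 0.98 without HDAC3 inhibitor replicate 1. Both inhibitor libraries were above both NaCl libraries. Col4a3 had 2.35 and 0.514 CPM against 0.796 and 0.435 CPM, with a log2 fold change of 1.19, and -0.25 without HDAC3 inhibitor replicate 1. The choroid plexus markers summed to 1542 CPM in that library and to between 17.0 and 46.5 CPM in the other 3, and their part in the values of Col8a1 and Col4a3 was not tested. Col18a1 had 11.2 and 9.21 CPM with the inhibitor and 15.8 and 15.7 CPM with NaCl. The groups did not overlap, and its log2 fold change was -0.63 with all libraries and also without NaCl replicate 1.

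Ratios between single libraries of the same labelled tissue differed widely. Between the libraries labelled cortex the log2 ratio of inhibitor over NaCl ran from -5.54 for Col24a1 to 3.13 for Col6a5, and between those labelled amygdala from -2.65 for Col17a1 to 0.89 for Col28a1. In amygdala the fibrillar Col3a1, Col1a2 and Col1a1 were at -1.51, -0.92 and -0.90, and in cortex at 0.085, 0.12 and 0.34. These are ratios of 1 library to 1 library and have no replicate check.

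**Figure D5:**
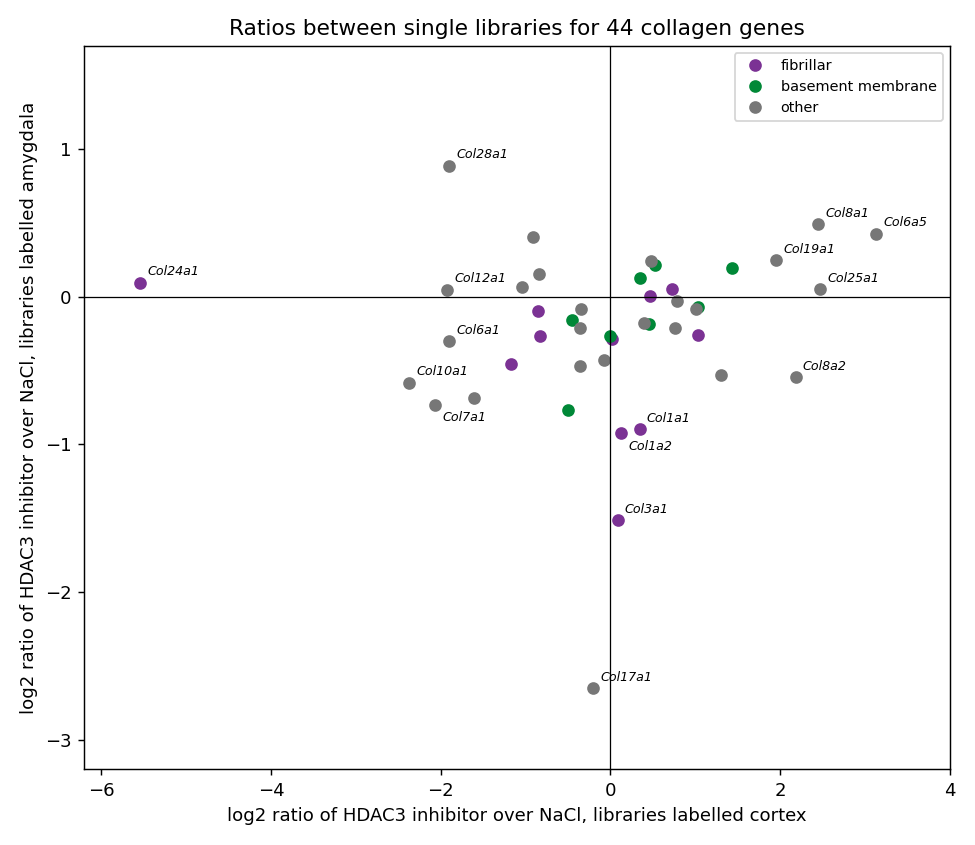
Each point is a collagen gene, with the log2 ratio of inhibitor over NaCl between the 2 libraries labelled cortex on the x axis and between the 2 labelled amygdala on the y axis, coloured by class. Col24a1 lies at -5.54 in cortex and 0.10 in amygdala, and Col3a1 at 0.085 and -1.51.

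None of the 5 lists of collagen-related genes had a member past the threshold with the inhibitor by edgeR, and at an unadjusted p under 0.05 no member was higher. On the lower side 1 of 18 folding genes, none of 13 cleavage genes, 1 of 15 basement membrane partners, 2 of 14 matrix genes and none of 8 receptors reached it, against 0.672% of all genes. The folding list had 15 of 18 members below 0, with a median log2 fold change of -0.16, where 9240 of all 17565 genes were below 0. It summed to 612 and 566 CPM with the inhibitor and to 680 and 603 CPM with NaCl, highest in NaCl replicate 1.

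The same 4 libraries were also compared by labelled tissue, 2 amygdala against 2 cortex. None of the 44 collagens passed the threshold by edgeR or limma-voom, and 0% of all genes did in either direction by edgeR. By DESeq2, Col1a2 and Col3a1 were past it on the higher side. At an unadjusted p under 0.05 in edgeR, 4 collagens were higher and 4 lower, against 6.81% and 4.4% of all genes. The median log2 fold change was 0.086 for fibrillar, -0.056 for basement membrane and -0.25 for the other collagens, against -0.029 for all genes.

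Collagens I and III and a collagen VI chain were on the higher side. Col3a1 (chr1:45311538-45349706) had 20.004 and 57.4 CPM in the amygdala-labelled libraries and 7.61 and 7.17 CPM in the cortex-labelled ones. The groups did not overlap, and the NaCl library was the higher of the amygdala pair. The log2 fold change was 2.39 (95% interval 0.97 to 3.80, unadjusted p = 0.00783, adjusted p = 0.302, edgeR), the highest of the collagens in this comparison. Col1a1 had 35.4 and 66.0 CPM against 26.4 and 20.8 CPM, with a log2 fold change of 1.10, and Col1a2, named after its values were seen, had 60.9 and 116 CPM against 36.7 and 33.7 CPM, with 1.33. Col6a2, the collagen VI chain whose gene neighbours Col6a1, had 33.6 and 45.1 CPM against 21.9 and 23.0 CPM, with 0.81.

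For Col3a1 the log2 fold change was 2.35 and past the threshold without NaCl replicate 1, 2.96 without HDAC3 inhibitor replicate 2, and 1.45 without NaCl replicate 2. Without NaCl replicate 2, Col1a1 was at 0.60 and Col1a2 at 0.81, and without NaCl replicate 1 at 0.95 and 1.28. The 14 fibroblast markers summed to 316 and 351 CPM in amygdala and to 351 and 406 CPM in cortex, so the list as a whole was not higher in amygdala. Lum, a fibril-binding proteoglycan among them, had 6.31 and 14.3 CPM against 4.63 and 3.47 CPM. Lox, which cross-links collagen and was named after its values were seen, had 2.76 and 6.96 CPM against 0.888 and 1.08 CPM. Its log2 fold change was 2.29 (adjusted p = 0.315, edgeR), the highest of the 13 cleavage and cross-linking genes. Their median was 0.0062, with 7 above 0 and 6 below.

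Col10a1 and Col19a1 followed Col3a1 with log2 fold changes of 1.81 and 1.45, the former on at most 19 counts per library. On the lower side were Col24a1 with -1.90, Col4a3 with -1.70 and Col6a6, a chain of collagen VI, with -1.62. Without NaCl replicate 1, Col10a1 had 0 counts in the remaining cortex library, so no fold is given, and Col19a1 was at 0.78, Col4a3 at -2.27 and past the threshold, and Col6a6 at -1.02. Without HDAC3 inhibitor replicate 1, Col10a1, Col19a1, Col4a3 and Col6a6 were at 0.88, 2.76, -0.73 and -2.02, with Col19a1 and Col6a6 past the threshold. The direction of Col24a1 turned to 2.79 and past the threshold without NaCl replicate 1, where HDAC3 inhibitor replicate 1 was the only cortex library and 5 collagens were past the threshold on the higher side and 6 on the lower, among 744 and 397 of all 18613 genes tested. Without HDAC3 inhibitor replicate 1, which leaves NaCl replicate 1 as the only cortex library, 7 and 8 collagens were, among 1396 and 1116 of 18744 genes. Col4a3 had 0.514 and 0.435 CPM in amygdala against 2.35 and 0.796 CPM in cortex, again with its highest value in the library with choroid plexus markers. Of the related lists none had a member past the threshold by edgeR, and at an unadjusted p under 0.05 the folding, cleavage, basement membrane, matrix and receptor lists had 0, 1, 1, 1 and 1 higher and 1, 0, 3, 2 and 0 lower, against 6.81% and 4.4% of all genes.

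Of the 44 collagen genes, 15 lie within 100000 bases of another collagen gene, in 8 pairs. The 3 pairs of type IV genes stand head to head. Col4a1 and Col4a2 on chromosome 8 share 22 bases at their starts, Col4a4 and Col4a3 on chromosome 1 lie 71 bases apart, and Col4a6 and Col4a5 on the X chromosome lie 1308 bases apart. The level of Col4a1 was between 0.650 and 0.752 times that of Col4a2 in FPKM in 7 libraries, and 0.893 times in NaCl replicate 1. Col4a3 and Col4a4 were both highest in RS replicate 2, at 7.32 and 7.64 CPM, and low in the libraries with few choroid plexus markers, whereas Col4a5 had between 8.93 and 15.4 CPM in every library and Col4a6 between 2.62 and 7.997 CPM. The other pairs were Col3a1 with Col5a2, Col6a2 with Col6a1, Col6a5 with Col6a4, Col6a6 with Col6a5, and Col9a1 with Col19a1. Col6a1 and Col6a2 did not move together in NaCl replicate 1, where Col6a1 was 2.13 times the highest of the other 3 libraries and Col6a2 was 0.510 times.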

How the data were processed

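The deposited counts per gene were made by the authors with STAR 2.4.0 and HTSeq 0.6.1 on GRCm38/mm10, and were used as deposited. The FPKM values were computed by the authors from these counts and gene lengths. Their columns of normalized signal, log2 fold changes and p-values were not used, including 8 columns of per-library values. The strand setting of the counting was not given in the sources used here.

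Genes with low counts were removed with filterByExpr, and each comparison of 2 against 2 libraries was fitted over all remaining genes with TMM scaling and edgeR's quasi-likelihood test (edgeR 4.0.16, R 4.3.3), with Benjamini-Hochberg adjustment. DESeq2 1.42.0, limma 3.58.1 (voom, and trend on log2(FPKM + 1) and log2(FPKM + 0.1)), RLE scaling, no filter, a replicate block and leaving out each library were alternatives. The edgeR, voom and DESeq2 fits of PTS + RS against RS and of inhibitor against NaCl were tested on simulated data. The comparison by labelled tissue and the other alternatives, including the fits with a library left out, were not. CPM is the count scaled by the library total times its TMM factor, which was set within each experiment of 4 libraries. The library totals of 15902013 to 21712033 counts limit precision for genes with few counts.

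Members and gene lists were chosen with earlier results of these data known. Genes named were the 3 of each class with the highest mean FPKM, the 3 with the largest and the 3 with the smallest log2 fold change in each comparison, their neighbours, any collagen past the threshold and list genes past it. In the inhibitor experiment the replicate number is also the labelled tissue, and deviations of same-numbered libraries had a correlation of 0.299. Gene coordinates were those of GENCODE M21.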

Additional observations from a re-analysis of the deposited data

Results flagged for a closer look

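The ratio of inhibitor over NaCl had opposite signs in the 2 labelled tissues in 19 of 44 collagens, and in 3 of these it was at least 0.5 log2 units in size in both. The log2 ratio of inhibitor over NaCl was 2.18 between the libraries labelled cortex and -0.54 between those labelled amygdala for Col8a2. For Col9a3 it was 1.30 and -0.53, and for Col28a1 it was -1.90 and 0.89. Each ratio sets 1 library against 1 library, and the difference between the tissues was not tested. The cortex-labelled pair also differed in content. Choroid plexus markers summed to 1542 CPM with the inhibitor and 46.5 CPM with NaCl, and olfactory bulb markers to 13.9 and 1294 CPM. The part of this content in the cortex ratios was not tested.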

How the results depend on the processing

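In PTS + RS against RS, the collagens past the threshold numbered 0 higher and 0 lower, and 3 lower without the filter on low counts. Leaving out 1 library gave 0 to 2 higher and 0 to 7 lower, and a fibrillar median of 0.032 to 0.51. Among the genes followed in this comparison, it turned Col1a1 (-0.69 to 0.73), Col3a1 (-0.36 to 1.18), Col5a1 (-0.68 to 0.43), Col18a1 (-0.75 to 0.13), Col6a1 (-0.41 to 0.57) and Col28a1 (-1.81 to 1.60). Further collagens outside this list turned as well, among them Col1a2 (-1.26 to 0.30), Col24a1 (-1.63 to 0.92) and Col6a2 (-0.28 to 0.62). Over all genes, 373 were higher and 16 lower, against 604 and 155 without the filter, 406 and 35 by DESeq2, 184 and 16 on log2(FPKM + 1), 260 and 25 on log2(FPKM + 0.1), and 443 and 32 with the replicate block. Without PTS + RS replicate 1 they were 388 and 192, without replicate 2 626 and 114, and without RS replicate 1 319 and 42.

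With the inhibitor, leaving out 1 library gave 0 to 1 collagen higher. The fibrillar median was -0.25 on log2(FPKM + 1) and -0.57 to 0.41 with a library left out. The basement membrane median was 0.29 for type IV chains alone and -0.16 to 0.37 with a library left out, and the median of the others was -0.094 on log2(FPKM + 1) and -0.33 to -0.080. Col4a3 ran from -0.25 to 1.92. Between the labelled tissues, 2 collagens were higher by DESeq2, and leaving out 1 library gave 0 to 7 higher and 0 to 8 lower. The medians with a library left out were 0.020 to 0.34 for fibrillar, -0.18 to 0.085 for basement membrane (0.16 for type IV chains alone) and -0.34 to -0.064 for the others (-0.077 on log2(FPKM + 1)), and Col24a1 ran from -2.86 to 2.79. Over all genes 0 were past the threshold in either direction, against 267 higher and 82 lower by DESeq2. The cause of these changes was not tested.

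The replicate block left 0 collagens past the threshold in each comparison. It gave 9 higher and 3 lower in place of 7 and 2 in PTS + RS against RS, 0 and 1 in place of 2 and 2 with the inhibitor, and 5 and 3 in place of 4 and 4 between tissues, where treatment was the block, all at an unadjusted p under 0.05. In PTS + RS and RS, libraries with the same number shared only the number (correlation of deviations 0.035). With 1 library left out, the lone library of its group was assumed to vary like the other group. In each comparison only part of the named genes was followed under alternatives. Of these 407 values, 11 changed sign, all with a library left out, and collagens that were not followed are not in this count. With 2 libraries a group, differences in genes with few counts were not detectable at this depth.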
